A study of Mus musculus with 16 samples.

Results

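The regions described here are the 604 accessible regions of the deposited ATAC-seq table that lie wholly within the mouse MHC class III and class I stretch, chr17:34560001-37400000 in the mm9 build, out of 250313 regions in the whole table. They were chosen by position alone, with no measured value, and no region straddled either end of the stretch. Every region of the table is 500 bp long. ATAC-seq uses the Tn5 transposase to cut and tag open DNA, so a higher signal means more cuts per region on the authors' scale. The libraries came from medullary thymic epithelial cells (mTECs) sorted from thymi of mice aged 4 weeks and labelled C57BL/6, at 60000 cells per reaction. Sorted cells excluded DAPI and CD45, carried EpCAM, bound the lectin UEA, had low Ly51, and were divided by surface MHC class II into mTEChi (high) and mTEClo (low). The 8 groups of 2 libraries were Aire-/- mTEChi, Aire+/+ mTEChi, Brg1-/- mTEChi, Brg1+/+ mTEChi, Aire-/- mTEClo, Aire+/+ mTEClo, Brg1-/- mTEClo and Brg1+/+ mTEClo. Aire-/- and Aire+/+ mice are called the Aire line here, and Brg1-/- and Brg1+/+ mice the Brg1 line. The labels name no Cre driver for the loss of Brg1. Since the Brg1+/+ libraries carry the name NOCRE, Cre itself may be a further difference between the Brg1 genotypes. The labels do not say that the 2 libraries of a group are from different mice, and p-values therefore measure only the spread between libraries, which may be technical.

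The MHC class III segment holds genes of complement and of the tumour necrosis factor family among many others, and the class I segment holds the H2-D, H2-Q, H2-T and H2-M genes, whose products include molecules that present peptides on the cell surface. In the thymic medulla, mTECs display self antigens to developing T cells, and the mTEChi sort contains the cells that express Aire. Aire promotes the expression of many tissue-restricted genes in these cells, and Brg1 (gene Smarca4) is an ATPase subunit of BAF chromatin remodelling complexes, which move nucleosomes and open DNA. The gene tables at hand belong to another assembly, so no region was linked to a gene, and neither the sort nor the genotypes were checked at marker loci.

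Class I promoters carry short elements that bind transcription factors, among them a kappa B site used in induction by inflammatory signals and CCAAT sequences, which occur in the promoters of many genes. A few of these promoters are shown as the regulatory context of the segment, from RefSeq GRCm38.p6, 5′ to 3′ on the gene's strand, as the 200 bases before the gene start. Capitals mark GGGATTCCC, the core of a kappa B sequence, and CCAAT, each searched on both strands of the 250 bases before the start, where no match of one overlapped a match of the other. H2-D1 encodes a classical class I heavy chain, H2-Q6 a non-classical one of the Q group, H2-T23 the non-classical molecule Qa-1, and H2-M10.2 is a gene of the M group.
H2-D1: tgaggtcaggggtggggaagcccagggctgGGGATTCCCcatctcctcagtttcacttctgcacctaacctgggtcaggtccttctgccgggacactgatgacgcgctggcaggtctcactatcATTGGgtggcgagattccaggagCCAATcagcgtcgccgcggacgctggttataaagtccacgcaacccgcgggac
H2-Q6: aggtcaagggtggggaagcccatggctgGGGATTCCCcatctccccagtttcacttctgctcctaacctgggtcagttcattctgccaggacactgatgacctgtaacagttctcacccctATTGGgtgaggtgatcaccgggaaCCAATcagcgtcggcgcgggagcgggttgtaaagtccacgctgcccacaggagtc
H2-T23: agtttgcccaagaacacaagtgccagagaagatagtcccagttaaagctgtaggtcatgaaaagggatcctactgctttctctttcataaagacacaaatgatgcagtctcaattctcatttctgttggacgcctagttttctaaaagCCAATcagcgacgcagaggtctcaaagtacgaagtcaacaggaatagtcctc
H2-M10.2: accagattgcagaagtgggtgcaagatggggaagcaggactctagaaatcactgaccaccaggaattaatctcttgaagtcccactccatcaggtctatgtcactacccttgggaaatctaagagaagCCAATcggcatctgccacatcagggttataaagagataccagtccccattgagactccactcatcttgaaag
The kappa B core began 170 bases before the start of H2-D1 (plus strand) and 172 bases before that of H2-Q6 (plus strand), and was found in 99 of 32851 RefSeq promoters (0.301%). Among the class I genes matched by symbol in the RefSeq table it was in the only H2-D gene, 2 of 5 H2-Q genes, 0 of 3 H2-T genes and 0 of 12 H2-M genes. CCAAT was in the H2-D gene, 4 of 5 H2-Q genes, 2 of 3 H2-T genes and 11 of 12 H2-M genes, against 33.8% of all RefSeq promoters. H2-D1 and H2-Q6 each hold it in both orientations (CCAAT and ATTGG), and H2-T23 and H2-M10.2 only as CCAAT. In H2-T23 and H2-M10.2 (both minus strand) it began 52 and 72 bases before the start. None of these promoters could be placed on a region of the table, so no signal value belongs to them here.

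Across libraries, the median signal over all regions of the table was 11.8 to 19.8 in mTEChi and 8.51 to 13.85 in mTEClo. That of the 604 regions was 20.1 to 27.7 in mTEChi and 11.7 to 16.6 in mTEClo. Values of exactly 0 were listed 43 times among these regions, all in 3 libraries of the Aire line: 18 in Aire+/+ mTEChi replicate 2, 12 in Aire-/- mTEClo replicate 2 and 13 in Aire+/+ mTEClo replicate 2. Pearson's correlation of log2(signal + 1) between the 2 libraries of a group, taken over these regions, ran between 0.712 in Aire+/+ mTEChi and 0.884 in Brg1+/+ mTEClo. No read counts or depths are in the table, so depth is unknown and the precision of a value is known only from the spread between libraries.

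The stretch was dense in accessible regions from its start through the sixth of 10 equal windows, and sparser after that. It held 213 regions per Mb, against 109 per Mb on chromosome 17 and 97.2 per Mb over all chromosomes. The stretch of equal length just before it held 244 per Mb, and the one just after it 16.2 per Mb. Regions also lay close together: 420 of the 604 (69.5%) had a neighbour within 1 kb, against 49.5% of all regions, and the median gap between neighbours was 943 bp. In 10 equal windows of 284 kb, in map order, the counts were 78, 80, 122, 71, 72, 72, 32, 5, 36 and 36 regions. The third window (chr17:35128001-35412000) was the densest and the eighth (chr17:36548001-36832000) held 5 regions. The largest gaps lay in and around that eighth window, with 81459 bp free of regions at chr17:36650154-36731612 and 77634 bp at chr17:36785372-36863005.

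**Figure D1:**
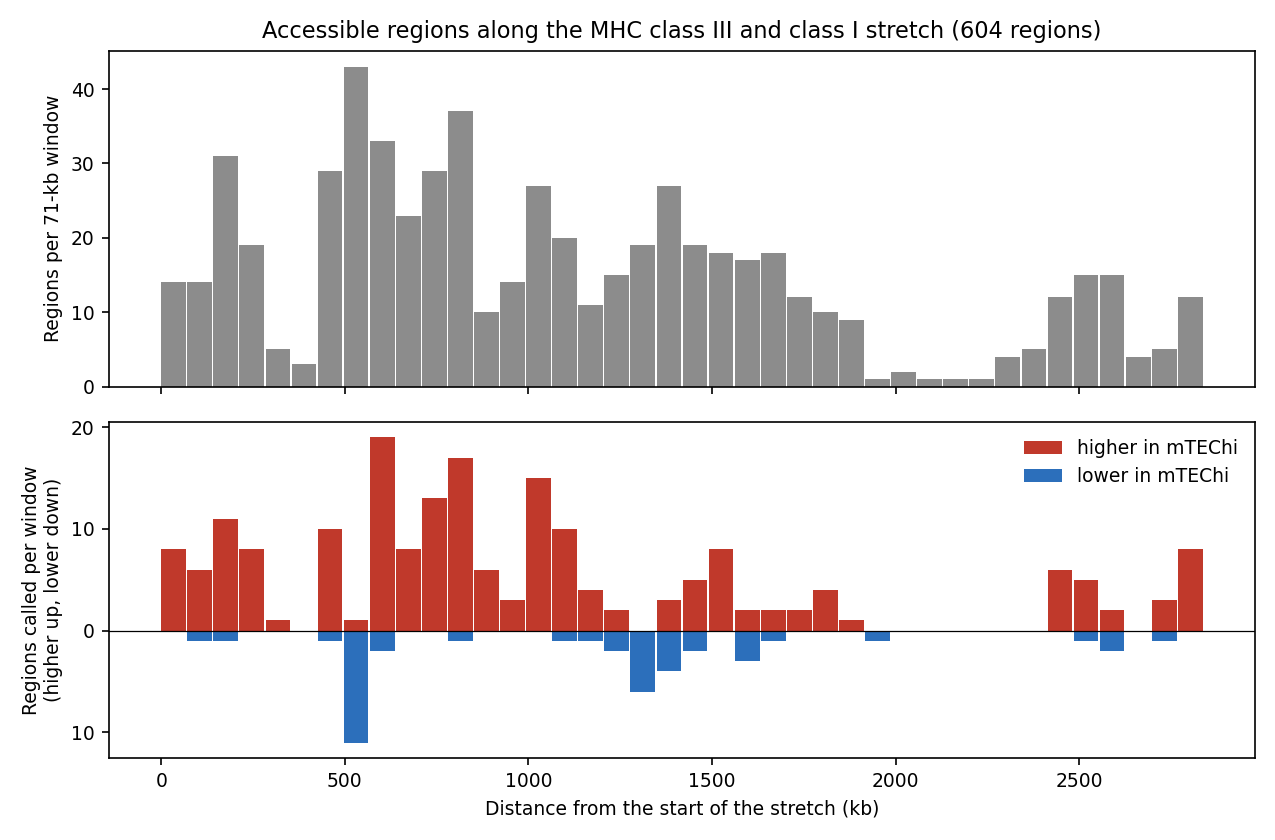
Number of accessible regions (top) and of regions called higher or lower in mTEChi than in mTEClo (bottom, limma adjusted p under 0.05) in 40 windows of 71 kb along the stretch, by distance from its start in kb. Regions are dense over the first part and nearly absent in the eighth of 10 windows, and regions lower in mTEChi gather in 2 places, the second and the fifth of the 10 windows.

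The mean signal over all 16 libraries had a median of 18.8 over these regions, against 14.2 over all regions. Of the 604, 50 (8.28%) were in the top 10% of regions in all 16 libraries, against 3.70% of all regions. The strongest region, chr17:34740519-34741018, had a mean signal of 852. Its lowest, median and highest signal were 651, 964 and 1092 in mTEChi libraries and 722, 780 and 897 in mTEClo libraries, so the sorts overlapped. Its log2 fold change of 0.18 ± 0.07 (SE) passed the test in limma (adjusted p = 0.0323). That value lay below the median of 0.33 over all tested regions. Calls between the sorts at the strongest regions were not followed under other scalings. Next came chr17:35978104-35978603 with a mean signal of 399, chr17:35301773-35302272 with 354 and chr17:37088486-37088985 with 353. None of those 3 passed the test between the sorts, with log2 fold changes of -0.17, 0.19 and 0.12. The fifth strongest, chr17:34781448-34781947, had 252, 352 and 514 in mTEChi and 210, 243 and 332 in mTEClo, with a log2 fold change of 0.48 ± 0.09 (SE, limma adjusted p = 4.91e-05). Over the 10 strongest regions the log2 fold change between the sorts lay between -0.22 and 0.48, so the differences at the most accessible sites of the stretch were small.

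The comparison of mTEChi with mTEClo asks how accessibility differs with MHC class II level. Of the 604 regions, 561 passed the filter on low signal (a mean of at least 7.48) and were tested, and 43 (7.12%) did not, against 10.0% of all regions. Pooled over the 4 genotypes, 193 tested regions (34.4%) were higher in mTEChi and 42 (7.49%) were lower at a limma adjusted p under 0.05, out of all 225281 tested regions of the genome, of which 27.1% were higher and 10.6% lower. The median log2 fold change was 0.42 over the stretch and 0.33 over all tested regions. In the stretch of equal length just before it, 45.1% of tested regions were higher and 5.61% lower, with a median of 0.69. In the one just after it, of 38 tested regions, 23.7% were higher and 15.8% lower, with a median of 0.36. In bulk sorted cells, more cells with an open site and a more open site in each cell cannot be told apart. Signal of all 8 mTEChi libraries lay above that of all 8 mTEClo libraries in 25 regions (4.46%, background 5.15% of tested regions). It lay below in 7 regions (1.25%, background 1.93%). Both shares were under their backgrounds.

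The balance between the directions rested on the authors' scaling. Quantile normalization of the log2 values moved the median of all tested regions to -0.02 and gave 117 higher and 82 lower regions. Cyclic loess moved that median to 0.03 and gave 124 higher and 65 lower. Re-centring each library on its median moved it to -0.10 and gave 93 higher and 116 lower. Relative to the median of all tested regions, the stretch stood 0.09 higher on the log2 scale under the authors' scaling. The 19 regions named below for this comparison kept their direction and their call under every alternative run.

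Differences between the sorts were unevenly spread along the stretch. In the first window (chr17:34560001-34844000) 33 of 67 tested regions were higher in mTEChi and 2 lower, in the third 57 of 122 were higher and 3 lower, and in the fourth (chr17:35412001-35696000) 34 of 69 were higher and 1 lower. Their median log2 fold changes were 0.77, 0.66 and 0.88. In the second window (chr17:34844001-35128000) 12 of 73 tested regions were higher and 12 lower, with a median of -0.07. In the fifth (chr17:35696001-35980000) 9 of 67 were higher and 13 lower, with a median of -0.19. Both medians lay below the 0.33 of all tested regions, and these windows held 25 of the 42 regions lower in mTEChi. The second window was itself uneven. Its 71-kb part chr17:34986001-35057000 held 10 regions called higher and 1 lower, and its part chr17:35057001-35128000 held 1 higher and 11 lower. The median log2 fold changes of these parts were 0.53 and -0.44. By genotype, the median log2 fold change of the second window was -0.01 in Aire-/-, -0.20 in Aire+/+, 0.04 in Brg1-/- and -0.06 in Brg1+/+, and in Brg1-/- it held 3 regions called higher and 0 called lower. That of the fourth window was 0.74 in Aire-/-, 0.76 in Aire+/+, 1.07 in Brg1-/- and 0.85 in Brg1+/+. That of the fifth window was -0.36 in Aire-/-, -0.25 in Aire+/+, 0.07 in Brg1-/- and -0.12 in Brg1+/+. Over all tested regions the median was 0.10 in Aire-/-, 0.16 in Aire+/+, 0.62 in Brg1-/- and 0.42 in Brg1+/+. The genotypes thus differed over the whole genome as well, and the window medians are to be read beside these. The median signal of the fifth window was 21.8 to 27.8 in the 4 mTEChi groups and 27 to 27.9 in the 4 mTEClo groups, whereas in the fourth window it was 17.4 to 26.3 in the mTEChi groups and 8.15 to 13.2 in the mTEClo groups, with no overlap between the sorts.

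**Figure D2:**
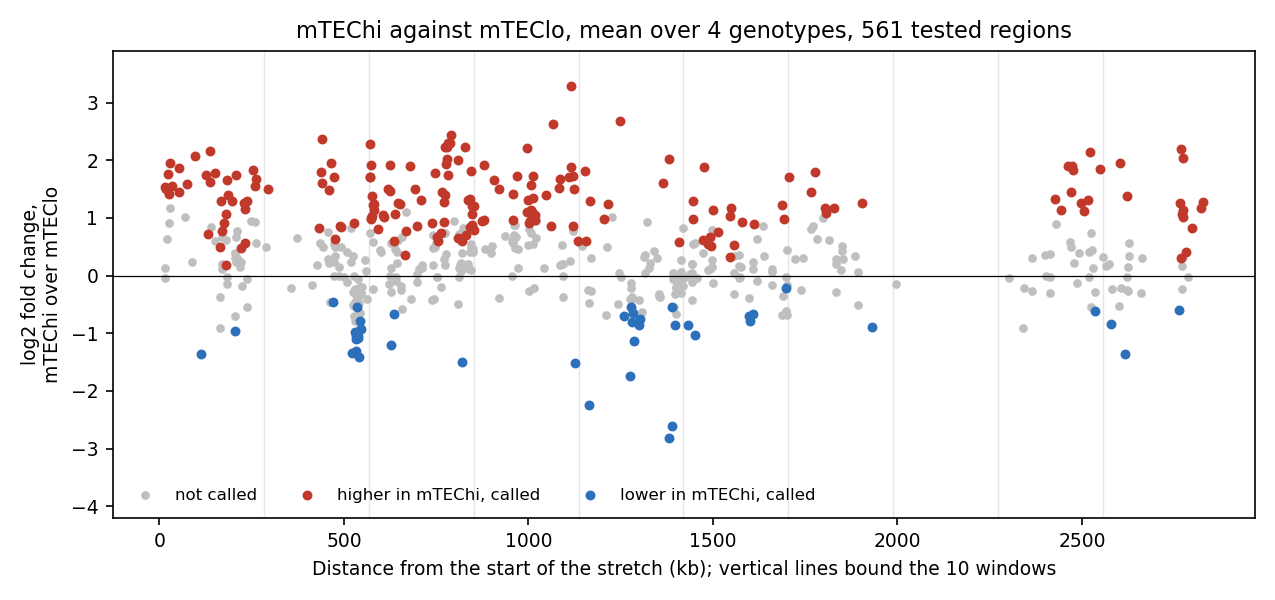
Log2 fold change of mTEChi over mTEClo, averaged over the 4 genotypes, for each of the 561 tested regions by distance from the start of the stretch in kb. Red points are the 193 regions called higher in mTEChi, blue points the 42 called lower and grey points those not called. Vertical lines bound the 10 windows. Blue points cluster in the second and the fifth window.

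Some calls lay in runs of neighbouring regions. The longest unbroken run of calls held 7 consecutive regions, all higher in mTEChi, over 13.3 kb at chr17:35337121-35350409, with log2 fold changes of 1.74 to 2.45. Further runs of 5 regions higher in mTEChi lay at chr17:35131063-35134511, chr17:35411626-35441253 and chr17:35606691-35645177. The longest run of regions lower in mTEChi held 4, at chr17:35091235-35093621, with log2 fold changes of -1.31 to -0.98. In all, 130 of the 193 higher regions (67.4%) stood in runs of 2 or more, as did 19 of the 42 lower ones (45.2%). Over all tested regions the shares of calls in such runs were 61.2% and 33.4%, and the difference from them was not tested.

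Among the higher regions, 20 had a mean signal at or above the median tested region and no overlap between the sorts, and the 12 with the largest fold change are described. The region at chr17:35674339-35674838 had the largest fold change among them, with 19.0, 52.5 and 105 (lowest, median and highest signal) in mTEChi and 0.416, 5.20 and 8.89 in mTEClo. The lowest mTEChi library was thus above the highest mTEClo library, and the log2 fold change was 3.30 ± 0.35 (SE, limma adjusted p = 7.22e-09). At chr17:35625196-35625695 the signal was 32.6, 49.8 and 81.95 in mTEChi and 1.59, 8.28 and 14.3 in mTEClo, with a log2 fold change of 2.63 ± 0.34. Both sites lie in the fourth window.

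Within the run of 7, chr17:35347051-35347550 had 65.7, 88.3 and 167 in mTEChi and 9.94, 20.01 and 36.9 in mTEClo, with a log2 fold change of 2.29 ± 0.21 (SE, limma adjusted p = 6.94e-10). Its neighbour chr17:35341350-35341849 had 19.4, 37.0 and 70.1 in mTEChi and 1.55, 7.08 and 11.98 in mTEClo, and another member, chr17:35338897-35339396, had 59.6, 100.2 and 170.9 in mTEChi and 16.01, 26.9 and 31.4 in mTEClo. The run thus spans sites of low and of high signal with similar fold changes. Elsewhere, chr17:34999409-34999908 in the second window had 66.9, 97.7 and 154 in mTEChi and 12.7, 18.5 and 24.4 in mTEClo. Its log2 fold change was 2.38 ± 0.23. It lay in a run of 3 regions higher in mTEChi, at chr17:34998755-35001196, and not in the part of that window where lower ones gather. The other named regions had log2 fold changes of 1.72 to 2.28 and lay at chr17:35131801-35132300, chr17:37327011-37327510, chr17:34696848-34697347, chr17:36034625-36035124, chr17:37034645-37035144 and chr17:35680447-35680946.

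The same rule was met by 7 regions in the other direction. At chr17:35939919-35940418 the signal was 2.19, 10.2 and 31.0 in mTEChi and 50.2, 64.2 and 106 in mTEClo, with a log2 fold change of -2.81 ± 0.36 (SE, limma adjusted p = 1.85e-07). Further on in the same window, chr17:35949607-35950106 had 7.14, 12.1 and 25.6 in mTEChi and 46.2, 86.4 and 123 in mTEClo, with a log2 fold change of -2.61 ± 0.26. The smallest adjusted p of the stretch belonged to chr17:35834805-35835304, with 39.5, 55.3 and 82.5 in mTEChi and 140, 203 and 231 in mTEClo, a log2 fold change of -1.73 ± 0.14 (SE, limma adjusted p = 6.22e-11). All 3 lie in the fifth window, and in each the highest mTEChi library stayed below the lowest mTEClo library. The other 4 were chr17:35380068-35380567, chr17:35101462-35101961, chr17:35991315-35991814 and chr17:37322346-37322845, with log2 fold changes of -1.50, -1.42, -0.85 and -0.60.

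**Figure D3:**
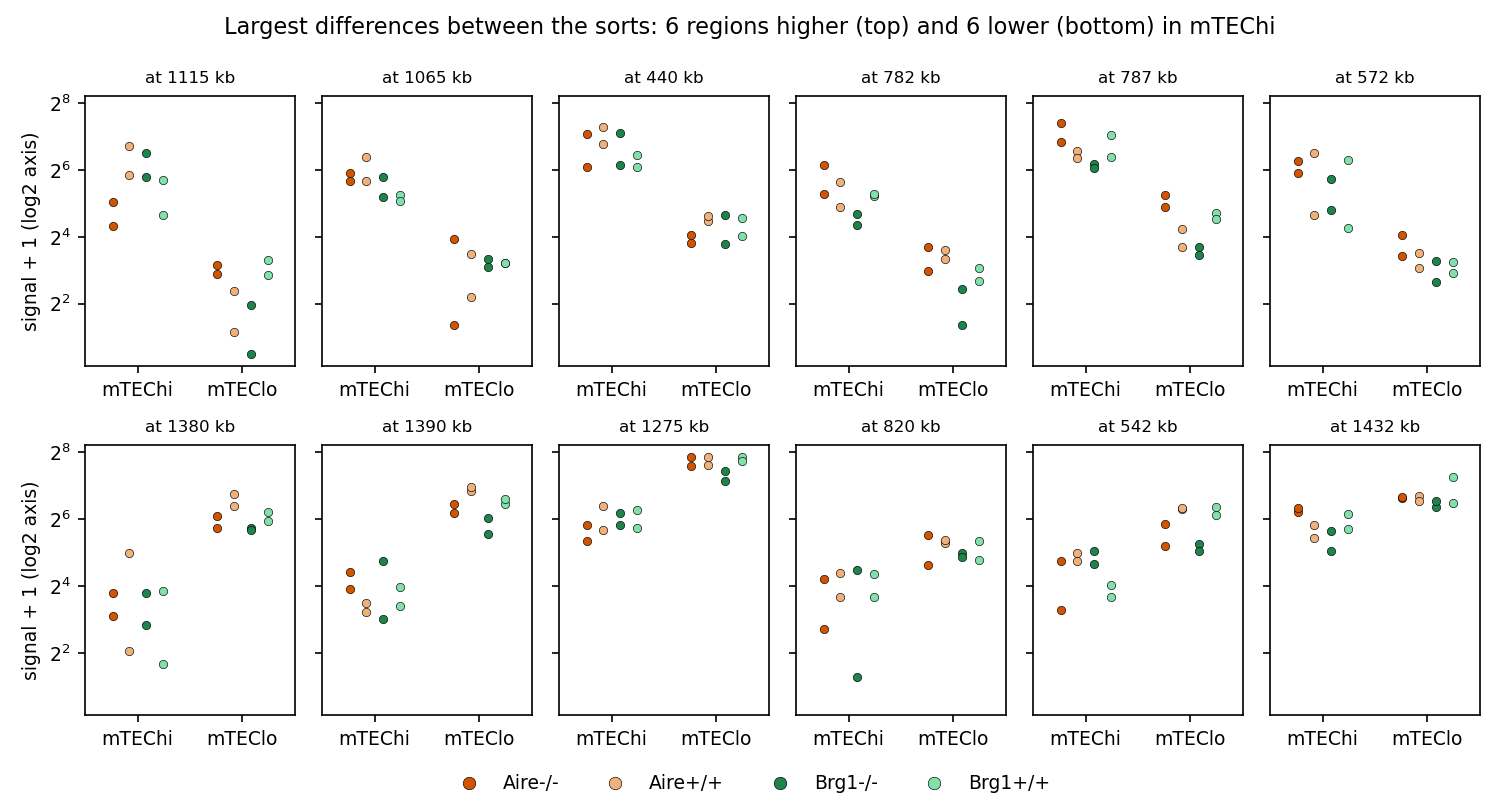
Signal plus 1 on a log2 axis in each library, mTEChi left and mTEClo right in each panel, for the 6 named regions with the largest fold change higher in mTEChi (top row) and 6 of the 7 lower in mTEChi (bottom row). Panel titles give the distance from the start of the stretch in kb, and colours mark the genotypes. The 2 sorts do not overlap in any of the 12 panels.

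Within single genotypes fewer regions were called. In Aire-/- cells 40 were higher and 17 lower in mTEChi (backgrounds 7.15% and 4.22%), in Aire+/+ cells 32 and 11 (5.14% and 3.65%), in Brg1-/- cells 37 and 8 (6.61% and 1.50%), and in Brg1+/+ cells 49 and 15 (9.21% and 3.75%). Of the 193 regions higher in the pooled comparison, 165 had a positive fold change in all 4 genotypes, and 36 of the 42 lower ones had a negative one. The pooled fold change is the mean of those 4, so a shared sign is partly built into these counts. Called higher in every genotype were 6 regions (background 1.34%), at chr17:34999409, chr17:35131801, chr17:35338897, chr17:35347051, chr17:37327011 and chr17:37383594. Called lower in every genotype were 3 regions (background 0.594%), all in the fifth window, at chr17:35834805, chr17:35939919 and chr17:35949607. Next to the telomeric end of the stretch, chr17:37383594-37384093 had 236, 292 and 454 in mTEChi and 103, 134 and 177 in mTEClo, with a log2 fold change of 1.17 ± 0.11 (SE, limma adjusted p = 1.13e-09). These counts rested on both libraries of each group. In Aire-/- cells the 57 calls became 18 to 23 when any 1 of the 4 libraries was left out, and the 64 of Brg1+/+ cells became 23 to 38. The 45 calls of Brg1-/- cells became 11 to 29. In Aire+/+ cells the 43 calls became 27 without mTEClo replicate 1 and 14 without mTEClo replicate 2. Scaling moved the split as well: after re-centring it was 27 higher and 18 lower for Aire-/- cells, 16 higher and 18 lower for Aire+/+ cells, 7 higher and 46 lower for Brg1-/- cells and 16 higher and 31 lower for Brg1+/+ cells. After quantile normalization Aire-/- cells had 31 higher and 22 lower, Aire+/+ cells 25 higher and 19 lower, Brg1-/- cells 9 higher and 16 lower, and Brg1+/+ cells 14 higher and 16 lower. Cyclic loess gave 28 higher and 19 lower for Aire-/- cells, 27 higher and 11 lower for Aire+/+ cells, where the split moved little, 10 higher and 11 lower for Brg1-/- cells and 19 higher and 20 lower for Brg1+/+ cells.

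The knockout comparisons ask how loss of Aire or of Brg1 changes accessibility within each sort. No region of the stretch was called by limma in any of them. Over all tested regions 0.0209% were called for Aire-/- against Aire+/+ in mTEChi, 0.00% in mTEClo, and 0.0257% and 0.000444% for Brg1-/- against Brg1+/+ in mTEChi and mTEClo. At an unadjusted p under 0.05 the counts were 59 regions (10.5%, against 10.2% of all tested regions) for Aire in mTEChi and 10 (1.78%, against 2.50%) for Aire in mTEClo. They were 47 (8.38%, against 10.7%) for Brg1 in mTEChi and 30 (5.35%, against 6.15%) for Brg1 in mTEClo. The median log2 fold changes over the stretch were -0.01 and -0.00 for loss of Aire in mTEChi and mTEClo, and 0.16 and 0.05 for loss of Brg1. Over all tested regions the median for loss of Brg1 in mTEChi was 0.22, and it became -0.01 after quantile normalization. In Aire-/- mTEChi both libraries lay above both Aire+/+ libraries in 93 regions and below them in 128 (backgrounds 18.9% and 18.6%). In Brg1-/- mTEChi both libraries lay above both Brg1+/+ libraries in 138 regions and below them in 60 (backgrounds 24.8% and 11.7%). In mTEClo the counts above and below were 81 and 103 for Aire (backgrounds 16.8% and 17.1%) and 125 and 80 for Brg1 (backgrounds 20.6% and 18.4%). Each of these shares of the tested regions lay within 5 percentage points of its background. Leaving out Aire+/+ mTEChi replicate 1 gave 4 calls for Aire in mTEChi, all higher, and leaving out Brg1+/+ mTEChi replicate 2 gave 1 call for Brg1 in mTEChi, also higher. No other library changed the count of 0.

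**Figure D4:**
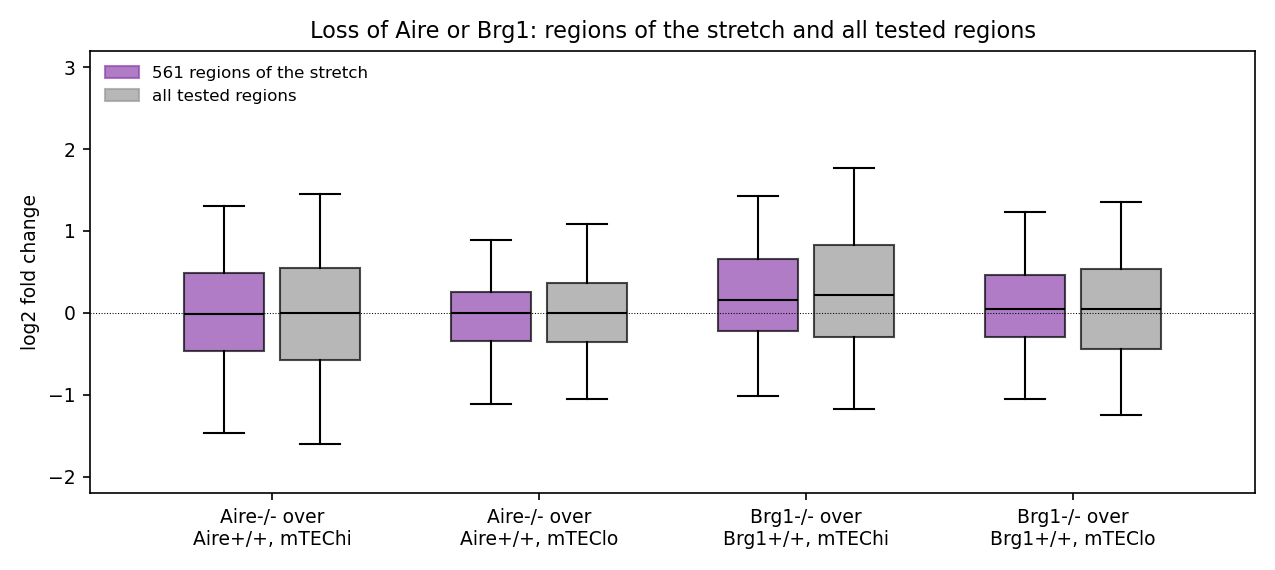
Log2 fold changes of the 4 knockout comparisons for the 561 tested regions of the stretch (purple) and all 225281 tested regions (grey). Boxes span the quartiles with the median as a line, and whiskers reach the 5th and 95th percentiles. Each purple box lies within the range of the grey box beside it and is narrower.

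The regions with the smallest unadjusted p are given as values. At chr17:35090176-35090675 the signal was 0.829 and 7.95 in Aire-/- mTEChi, against 47.0 and 21.9 in Aire+/+ mTEChi. The Aire-/- libraries were both lower, with a log2 fold change of -3.03 ± 0.72 (SE) that missed the threshold (limma adjusted p = 0.125). In mTEClo the same region had 19.1 and 27.5 in Aire-/- and 23.4 and 15.8 in Aire+/+, which overlapped. Also low in Aire-/- mTEChi was chr17:35326848-35327347, with 0.762 and 1.46, against 19.0 and 19.7 in Aire+/+ mTEChi (limma adjusted p = 0.221). At chr17:36248401-36248900 the values were 59.8 and 67.7 in Aire-/- mTEChi, against 143 and 176 in Aire+/+ mTEChi (limma adjusted p = 0.154). With all libraries pooled, that region was also called higher in the Aire line than in the Brg1 line. In these 3 regions the genotypes did not overlap in mTEChi, but the regions were picked by their small p in that comparison, so this is no further evidence.

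For loss of Aire in mTEClo, the 3 regions with the smallest p were chr17:37329950-37330449, chr17:36133856-36134355 and chr17:35347051-35347550, with log2 fold changes of 2.33, 0.49 and 1.10 and limma adjusted p rounding to 1.00 in each. For loss of Brg1 in mTEChi, chr17:37176141-37176640 had 10.5 and 1.99 in Brg1-/- mTEChi, against 33.1 and 36.9 in Brg1+/+ mTEChi (log2 fold change -2.62 ± 0.68, SE, limma adjusted p = 0.164). At chr17:37340476-37340975 the values were 194 and 196 in Brg1-/- mTEChi, against 84.95 and 114 in Brg1+/+ mTEChi (log2 fold change 0.98 ± 0.27, SE, limma adjusted p = 0.182). These genotypes did not overlap in either region, the first being lower and the second higher in Brg1-/-. Both regions were likewise picked by their small p. At chr17:37184925-37185424 the signal was 37.4 and 21.4 in Brg1-/- mTEChi, against 9.98 and 2.46 in Brg1+/+ mTEChi (limma adjusted p = 0.184). For loss of Brg1 in mTEClo, chr17:35728578-35729077 had 94.9 and 30.5 in Brg1-/- mTEClo, against 171 and 143 in Brg1+/+ mTEClo (log2 fold change -1.52 ± 0.36, SE, limma adjusted p = 0.400). The next, chr17:36179555-36180054 and chr17:34576764-34577263, had log2 fold changes of 0.62 and 1.74 there.

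Whether a knockout acted differently in the 2 sorts was tested as an interaction, and no region of the stretch was called for either gene (backgrounds 0.000444% for Aire and 0.00% for Brg1). At an unadjusted p under 0.05 limma counted 24 regions for Aire (4.28%, against 5.15% of all tested regions) and 40 for Brg1 (7.13%, against 7.09%), so neither share stood clear of the background. The smallest p for Aire was again at chr17:35090176-35090675, with an interaction of -3.27 ± 1.02 on the log2 scale (SE, limma adjusted p = 0.959). Second came chr17:35674339-35674838, the region with the largest difference between the sorts, with 19.0 and 31.7 in Aire-/- mTEChi, against 105 and 56.6 in Aire+/+ mTEChi, and 7.96 and 6.42 in Aire-/- mTEClo, against 4.23 and 1.24 in Aire+/+ mTEClo. The genotypes did not overlap in either sort and differed in opposite directions (interaction -2.87 ± 0.99, SE, limma adjusted p = 0.959), in a region picked by its small p for the interaction. For Brg1 the smallest p was at the first region of the stretch, chr17:34574527-34575026, with 23.3 and 61.7 in Brg1-/- mTEChi, against 5.80 and 12.1 in Brg1+/+ mTEChi, and 9.42 and 2.46 in Brg1-/- mTEClo, against 11.5 and 35.6 in Brg1+/+ mTEClo (limma adjusted p = 0.453).

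A group of regions differed between the Aire line and the Brg1 line when sorts and genotypes were pooled. Between the wild types, Aire+/+ against Brg1+/+ gave 4 calls in mTEChi, 1 higher and 3 lower in Aire+/+ (backgrounds 0.0653% and 0.0910%), and 1 call in mTEClo, lower in Aire+/+ (backgrounds 0.00178% higher and 0.0351% lower). The higher region was chr17:37184925-37185424, with 39.1 and 75.6 in Aire+/+ mTEChi, against 9.98 and 2.46 in Brg1+/+ mTEChi (limma adjusted p = 0.0155). As given above, both Brg1-/- mTEChi libraries were also higher there than both Brg1+/+ mTEChi libraries. The same Brg1+/+ libraries thus enter both results. All 4 lower regions lie in the seventh window. These calls rested on single libraries. In mTEChi, leaving out Aire+/+ replicate 1 gave 1 higher and 4 lower, leaving out Aire+/+ replicate 2 gave 0 higher and 1 lower, leaving out Brg1+/+ replicate 1 gave 5 higher and 0 lower, and leaving out Brg1+/+ replicate 2 gave 2 higher and 0 lower. Each of the 3 lower regions lost its call in 3 of these 4 fits, and the higher one in 2 of them, after re-centring and when only the groups compared were fitted. In mTEClo the single call was lost without Aire+/+ replicate 2 and without either Brg1+/+ library. Comparisons of the knockouts and of the whole lines were added after these values were seen. Aire-/- against Brg1-/- gave 6 calls in mTEChi, 1 higher and 5 lower (backgrounds 0.304% and 0.258%), and 2 in mTEClo, both lower (backgrounds 0.0608% higher and 0.0759% lower). With any 1 library of these groups left out the lower calls became 0 to 2 in mTEChi and 0 to 1 in mTEClo, and fitting only the groups compared left 0 in mTEChi. With all libraries pooled, 17 tested regions differed between the lines, 7 higher and 10 lower in the Aire line (backgrounds 0.639% and 0.160%). That split became 3 and 10 after quantile normalization or cyclic loess and 0 and 16 after re-centring.

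Signal of all 8 Aire-line libraries lay below that of all 8 Brg1-line libraries in 9 of the 604 regions and above it in 1, over tested and untested regions alike. The background was 0.0739% lower and 0.0699% higher over all 250313 regions. Of the 9 lower regions, 7 lie within 164 kb at chr17:36281892-36446285, a block that holds 26 regions. Being listed by this lack of overlap, the 10 regions are described by their values, which chose them, and 4 of the 9 lower ones were too low in mean signal to be tested.

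The clearest of them was chr17:36445786-36446285, the last region of the block, with a signal of 0 to 9.33 (median 1.36) in Aire-line libraries and 45.4 to 82.1 (median 60.0) in Brg1-line libraries. Among its Aire-line values, Aire-/- mTEChi had 0.828 and 9.33, Aire+/+ mTEChi 3.64 and 0, Aire-/- mTEClo 1.90 and 0, and Aire+/+ mTEClo 7.14 and 0. Thus the 3 zeros came from the 3 libraries in which zeros are listed, and the other 5 libraries were also below every Brg1-line library. The pooled log2 fold change was -4.59 ± 0.44 (SE, limma adjusted p = 1.32e-08).

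At chr17:36330341-36330840 the signal was 0 to 3.04 (median 0.883) in the Aire line and 15.99 to 80.9 (median 29.9) in the Brg1 line, a log2 fold change of -4.22 ± 0.46. At chr17:36342340-36342839 it was 0 to 4.30 (median 1.14) in the Aire line and 15.4 to 61.9 (median 40.7) in the Brg1 line, a log2 fold change of -4.13 ± 0.43. At chr17:36304541-36305040 it was 0 to 6.66 (median 0.530) in the Aire line and 10.8 to 51.5 (median 27.5) in the Brg1 line, a log2 fold change of -3.82 ± 0.49. In each of these 3 regions signal was near the bottom of the scale in Aire-line cells of both sorts and both genotypes, and clear in Brg1-line cells of both sorts and both genotypes. The untested regions of the block, chr17:36281892-36282391, chr17:36294675-36295174 and chr17:36305094-36305593, had Aire-line medians of 0.489, 0.501 and 0.462, against Brg1-line medians of 11.2, 8.31 and 6.18. Outside the block, chr17:35873122-35873621 in the fifth window had 0 to 2.29 (median 0.687) in the Aire line and 10.5 to 38.0 (median 22.2) in the Brg1 line, and the untested chr17:36899512-36900011 in the ninth had 0 to 2.98 in the Aire line and 3.46 to 12.6 in the Brg1 line.

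In the other 19 regions of the block the libraries of the 2 lines overlapped. Their medians ran between 0.501 and 71.05 in the Aire line and between 5.58 and 63.3 in the Brg1 line. Low Aire-line medians thus also occurred among these 19 regions. One of them, chr17:36326854-36327353, was called higher in the Aire line (log2 fold change 1.67, limma adjusted p = 0.0432), but it lost that call in 12 of 16 fits with 1 library left out and in 3 of 8 other alternatives. The single region with the Aire line above the Brg1 line throughout was chr17:35561526-35562025, with 169 to 234 (median 193) in the Aire line and 59.2 to 156 (median 119) in the Brg1 line. Its log2 fold change of 0.81 ± 0.13 (SE, limma adjusted p = 0.000806) was far smaller than that of the lower regions, and both lines had strong signal there. Another region in the fourth window, chr17:35575773-35576272, was called higher in the Aire line as well, with a log2 fold change of 0.68 ± 0.10. The 71-kb part chr17:35554001-35625000 around both held 4 of the 7 higher calls, with a median log2 fold change of 0.82 over 25 tested regions. Also called there, chr17:35556459-35556958 and chr17:35562486-35562985 lost their call in 11 and 6 of 16 fits with 1 library left out. In the sixth window chr17:36248401-36248900 was called higher too, and kept its call in all 16. Re-centring, which left 0 higher calls, ended all of these. Among the 17 pooled calls, the 4 tested block regions and chr17:35873122-35873621 kept their call under every alternative in which they were tested, including each single library left out. The total of 17 fell to 9 without Brg1+/+ mTEClo replicate 2 or without Aire-/- mTEClo replicate 2, to 10 without Aire+/+ mTEClo replicate 2, Aire-/- mTEChi replicate 1 or Aire-/- mTEChi replicate 2, and to 11 without Aire+/+ mTEClo replicate 1 or Brg1-/- mTEClo replicate 2. All mice carry the label C57BL/6, and the line and anything else that differs between the libraries of the 2 lines cannot be told apart.

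**Figure D5:**
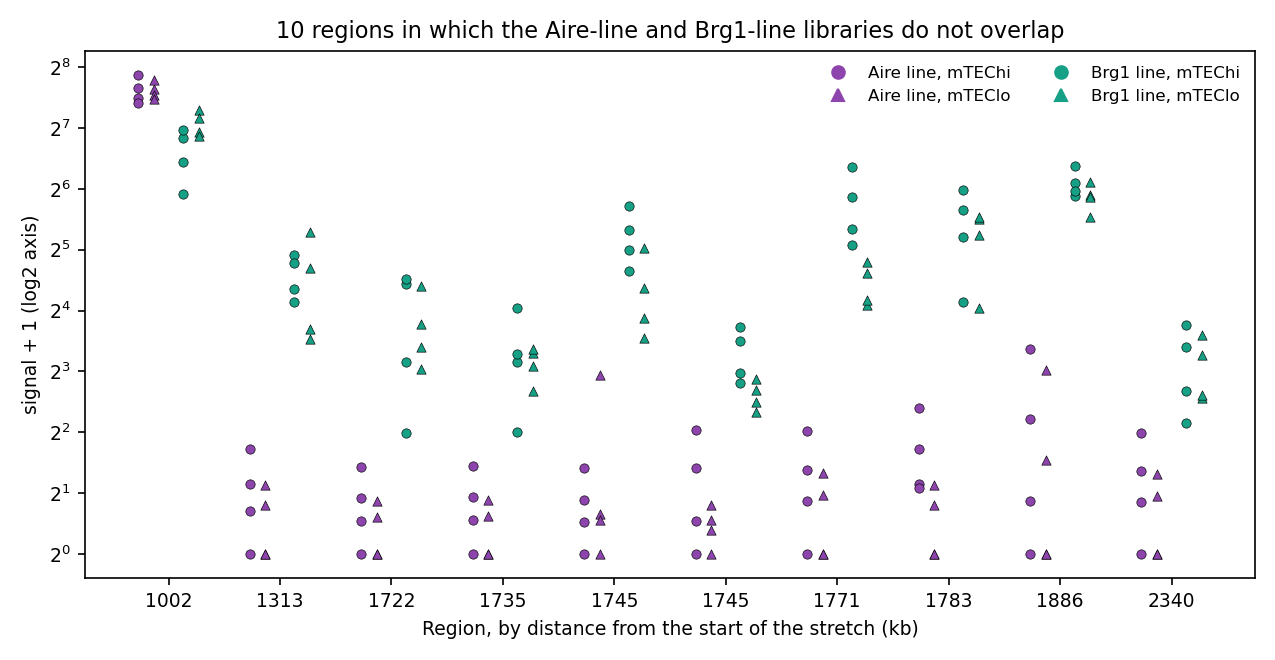
Signal plus 1 on a log2 axis in all 16 libraries for the 10 regions in which the Aire-line (purple, left) and Brg1-line (green, right) libraries do not overlap, ordered by distance from the start of the stretch in kb. Circles are mTEChi and triangles mTEClo. The leftmost region is higher in the Aire line, and the other 9 are lower in every Aire-line library of both sorts.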

How the data were processed

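The authors deposited 1 table of signal per region and library (16 libraries). The values are not whole numbers, whole reads could not be recovered, and the sources do not state how the signal was scaled. Bowtie2, MACS2 and mm9 are named, without versions, per the submitters' processing notes. For region calling, Tn5 shift and duplicate removal, methods were not given in the sources used here. Region starts were taken as counted from 0 and are printed counted from 1.

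Signal was analysed as log2(signal + 1), so fold changes are on that scale and understate those of low regions. Regions with a mean under the 10th percentile (7.48) were left out. limma 3.58.1 in R 4.3.3 fitted 8 group means over all 16 libraries with trended, robust variances. Two-sided p-values were adjusted by Benjamini-Hochberg, with calls under 0.05, over all 225281 tested regions within each comparison. The whole table was fitted, and the scripts were tested on simulated data. The comparisons of the knockouts and of the pooled lines were added after values were seen.

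Regions are named by these rules: up to 12 per direction between the sorts, by fold change, among calls with mean signal at or above the median and no overlap between sorts; for other comparisons every call, 10 or fewer, or the 3 smallest unadjusted p; and the 10 strongest. In the pooled comparison of lines 5 per direction are taken. Members, rules and lists were chosen with earlier results of these data known. Gene and marker lists were not used, since no mm9 annotation was given. Same-numbered libraries did not deviate together (28 pairs, correlations -0.0176 to 0.0340), so numbers were not used as pairs. Alternatives were 2 pseudocounts, 2 filters, 3 scalings, a replicate block, non-robust variances, fits of only the groups compared, and each library left out.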

Additional observations from a re-analysis of the deposited data

How the results depend on the processing

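No region named by the rules as called in a comparison reversed direction under any alternative run in which it was tested. Regions given only for strong signal, for their place in a run or for calls in single genotypes were not followed in this way. Counts given here are of called regions of the stretch. Fitting only the groups compared gave 91 for mTEChi against mTEClo in Aire-/-, 21 in Aire+/+ and 27 in Brg1-/-, 2 for Aire+/+ against Brg1+/+ in mTEChi and 0 for Aire-/- against Brg1-/- in mTEChi. Quantile normalization gave 25 for the sorts in Brg1-/-, 30 in Brg1+/+, 3 for Aire+/+ against Brg1+/+ in mTEClo and 4 for Aire-/- against Brg1-/- in mTEClo. Cyclic loess gave 21, 39, 4 and 4 for these, and re-centring gave 3 for Aire+/+ against Brg1+/+ in mTEClo. A filter at the 50th percentile gave 2 and 0 for the wild types of the lines in mTEChi and mTEClo, and 3 and 1 for the knockouts. A pseudocount of 0.5 gave 2 for Aire-/- against Brg1-/- in mTEChi, and one of 5 gave 2 for Aire+/+ against Brg1+/+ in mTEClo. The cause of these changes was not tested. Leaving out 1 library gave 202 to 234 for the pooled sorts, 18 to 23 in Aire-/-, 14 to 38 in Aire+/+, 11 to 29 in Brg1-/- and 23 to 38 in Brg1+/+. It gave 0 to 4 for Aire and 0 to 1 for Brg1 in mTEChi, 1 to 5 and 0 to 2 for the wild types of the lines in mTEChi and mTEClo, 1 to 5 and 0 to 1 for the knockouts, and 9 to 19 for the pooled lines. A group left with 1 library was assumed to vary like the others. With the replicate block the sorts in Aire-/- gave 41 higher and 16 lower and those in Aire+/+ 31 and 11, and the other counts, 235 for the pooled sorts among them, were those without it.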
